A study of Mus musculus with 44 samples.

Results

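Fth1 and Sod2 are a pair of genes that act on iron and on superoxide, and the positions of NF-kB and IRF3 near them were described in mouse macrophages. They are 2 of 21887 protein-coding genes on chromosomes 1 to 19, X and Y. Both were picked because earlier results of these data placed NF-kB peaks near them with lipopolysaccharide (LPS), which coats Gram-negative bacteria and is sensed by Toll-like receptor 4. The presence of a peak near them is therefore a description, and it was not tested. Every peak within 100 kb of either gene's span was taken from 8 deposited peak lists, which gave 6 peaks for Fth1 and 7 for Sod2.

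Macrophages were grown from bone marrow of C57BL/6 mice with 30 ng/ml M-CSF, a macrophage growth factor, and 10% serum, and were collected between day 8 and day 10. The groups were Dnmt3a KO with 10 ng/ml LPS for 6 hours, Dnmt3a KO untreated, WT with the same LPS treatment, and WT untreated. Dnmt3a is a DNA methyltransferase, and the labels name its deletion without the allele or the cells deleted. Chromatin bound by each factor was recovered with an antibody and sequenced (ChIP-seq), after shearing to 100 to 300 bp. Each NF-kB list merged 3 samples. The IRF3 lists merged 3 samples in KO with LPS, 2 in KO untreated, 2 in WT with LPS and 3 in WT untreated. Because replicates were merged, no value here has an error and no difference between lists could be tested. Sequencing depth is unknown. A position absent from a list was not kept by that list's own calling and merging, whose settings are not stated, and need not be unbound.

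NF-kB is a family of dimers held in the cytoplasm by IkB proteins and released when Toll-like receptors sense LPS. IRF3 is activated in the same response, downstream of the kinase TBK1, and is best known for interferon genes. Fth1 encodes the heavy chain of ferritin, which oxidises iron and stores it, and macrophages use ferritin to hold iron back from microbes. Sod2 encodes the manganese superoxide dismutase of mitochondria, which turns superoxide into hydrogen peroxide. Both genes are textbook NF-kB targets. Enhancers that respond to cytokines through NF-kB have been described upstream of the mouse ferritin heavy chain gene and inside Sod2, but their coordinates were not compared here.

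Fth1 (gene ID 14319) spans 4512 bp at chr19:9980600-9985111 and Sod2 (gene ID 20656) spans 10281 bp at chr17:13007839-13018119, both on the plus strand of GRCm38.p6, the assembly of mm10. The table of RefSeq promoter windows, which run from 250 bases before to 50 after an annotated start, holds 2 windows for Fth1 and 1 for Sod2. Within 100 kb lie 5 other protein-coding genes at Fth1 and 9 at Sod2, so a peak counted here may stand as near to a neighbour. The windows are shown because the NF-kB peaks described next lay outside all 3 of them. Capitals mark every match on either strand to the loose kB pattern, which reads GGG, any 5 bases and CC.
Fth1, first start, chr19:9980350-9980649: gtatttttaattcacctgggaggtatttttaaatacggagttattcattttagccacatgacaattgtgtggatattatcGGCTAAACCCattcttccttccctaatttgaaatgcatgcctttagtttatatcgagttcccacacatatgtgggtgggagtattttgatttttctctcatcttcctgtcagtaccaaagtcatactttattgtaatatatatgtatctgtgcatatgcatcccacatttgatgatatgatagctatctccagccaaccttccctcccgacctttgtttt
Fth1, second start, chr19:9982396-9982695: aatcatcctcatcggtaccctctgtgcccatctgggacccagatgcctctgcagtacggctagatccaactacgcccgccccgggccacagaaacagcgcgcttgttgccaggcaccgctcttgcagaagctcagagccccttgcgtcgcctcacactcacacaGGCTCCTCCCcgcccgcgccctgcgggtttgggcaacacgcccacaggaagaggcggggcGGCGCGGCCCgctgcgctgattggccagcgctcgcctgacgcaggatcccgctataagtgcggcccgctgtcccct
Sod2, chr17:13007589-13007888: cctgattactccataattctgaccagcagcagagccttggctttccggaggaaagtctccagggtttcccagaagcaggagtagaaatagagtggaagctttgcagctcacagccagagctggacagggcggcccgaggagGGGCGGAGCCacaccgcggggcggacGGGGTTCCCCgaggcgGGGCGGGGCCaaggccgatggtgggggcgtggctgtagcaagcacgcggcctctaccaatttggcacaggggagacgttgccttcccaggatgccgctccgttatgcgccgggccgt

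The loose kB pattern occurred 1 time in the first Fth1 window, 2 times in the second and 4 times in the Sod2 window, where GGGGTTCCCC counted on both strands. With the start at position 0, the Sod2 matches lay between -109 and -58 and those of the second Fth1 window between -86 and -17. The pattern was found in 50.8% of all 32851 promoter windows, so its presence does not set these promoters apart. None of the 3 windows held the stricter kB pattern of GGG, any 2 bases and TTTCC, found in 1.63% of all windows. None held the interferon response core of GAAA, any 2 bases and GAAA (3.44%), or the antioxidant response core of TGAC, any 3 bases and GC (12.4%). Every match to the stricter kB pattern also matches the loose one. The first Fth1 window had a GC content of 36.7% and 4 CpG sites. Its second window had 67.0% and 27 CpG sites, and the Sod2 window 64.3% and 21 CpG sites, against a median GC content of 52.7% over all windows.

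With LPS, NF-kB was listed near both genes in both genotypes, and IRF3 was listed near neither gene in any condition. In the KO LPS list both genes had an NF-kB peak within 100 kb (background 15.2% of all genes), and in the WT LPS list both did as well (15.5%). Without LPS, Sod2 alone had one, in KO (18.4%) and in WT (9.62%). In the full lists, presence within 100 kb was the same in KO and WT for both genes. Equal presence does not set them apart, since only 29.7% of all genes had a peak in any of the 8 lists. An NF-kB peak in KO and none in WT was found for 5.06% of all genes with LPS and 10.8% untreated. With all lists shortened to 1169 peaks, Sod2 had 0 peaks in KO untreated and 2 in WT untreated. The full lists held 3065 peaks in KO untreated and 1462 in WT untreated, so the cut removed more of the KO list. None of the 4 IRF3 lists held a peak within 100 kb of either gene. Of all genes, 11.0% had one in KO with LPS, 10.5% in KO untreated, 8.51% in WT with LPS and 6.47% in WT untreated. In any of the 4 IRF3 lists, 17.0% of all genes had one, so most genes had none. The members were chosen for the LPS peaks, so nothing is read from those shares.

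**Figure D1:**
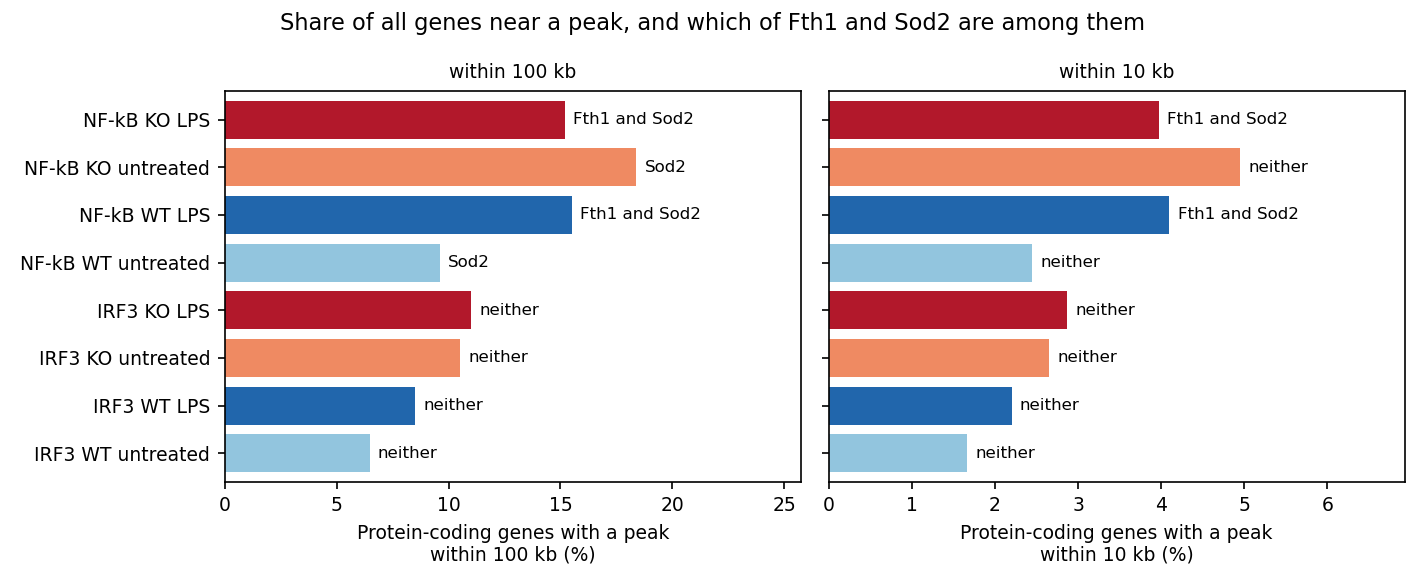
Each bar is the percent of 21887 protein-coding genes with a peak within 100 kb (left) or within 10 kb (right) of the gene span in 1 of the 8 merged lists, and the words beside it name which of Fth1 and Sod2 are among them. At 10 kb both genes appear in the NF-kB lists of KO with LPS and WT with LPS and in no other list, while at 100 kb Sod2 is also among the genes of both untreated NF-kB lists.

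The best-ranked Fth1 position lay upstream of the gene, outside its span. In KO with LPS, an NF-kB peak of 523 bp at chr19:9974870-9975392 ended 5208 bp before the gene span. In WT with LPS, a peak of 473 bp at chr19:9974801-9975273 ended 5327 bp before it. They shared 404 bp, which is 77.2% of the KO peak and 85.4% of the WT peak. Both peaks were among the best of their own list. By deposited p-value the KO peak ranked 28 of 2376 (q = 0.000693) and the WT peak 119 of 2494 (q = 0.00818). Its deposited signal was 30.4 in KO, where the list's median was 12.2, and 21.2 in WT, where the median was 11.3. These p-values, q-values and signals are the authors' own and are read only within a list.

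A second, nearer Fth1 position was listed by the same 2 lists but differed in extent. The KO LPS peak covered 971 bp (chr19:9977908-9978878) and the WT LPS peak 150 bp (chr19:9978478-9978627). The WT peak lay wholly inside the KO peak and made up 15.4% of it. Its rank was 497 of 2376 in KO (q = 0.17) and 1151 of 2494 in WT (q = 0.38), so neither peak passed a q-value of 0.05. The nearer and the farther peak were separated by 2515 bp in KO and 3204 bp in WT. Peaks with another peak of their list within 5 kb were not rare, at 20.8% in KO with LPS and 13.6% in WT with LPS. These shares also count peaks that abut, unlike the pair here.

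Measured from the first annotated start of Fth1, the centres of the farther peaks lay at -5469 bp (KO) and -5563 bp (WT). From the second start, whose window is the GC-rich one printed above, they lay at -7515 bp (KO) and -7609 bp (WT). The centres of the nearer peaks lay at -2207 bp (KO) and -2047.5 bp (WT) from the first start. From the second start they lay at -4253 bp (KO) and -4093.5 bp (WT). No peak touched either promoter window. The closest came to 1472 bp of the first window in KO with LPS and to 1723 bp in WT with LPS.

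In KO with LPS, 2 further NF-kB peaks lay farther upstream of Fth1, and no other list held a peak at either place. They spanned 670 bp at chr19:9931179-9931848 and 511 bp at chr19:9938748-9939258, at 48752 and 41342 bp from the gene. Both overlapped Gm36913, a long noncoding RNA gene. The protein-coding gene nearest to both was Incenp, which encodes a centromere protein of the chromosomal passenger complex, at 31690 and 39259 bp. They ranked 320 and 399 of 2376, with q-values of 0.0875 and 0.128. Fth1 thus had 4 NF-kB peaks within 100 kb in KO with LPS and 2 in WT with LPS. At least 4 peaks were counted for 0.279% of all genes in the KO LPS list, and at least 2 for 3.63% in the KO LPS list and 3.19% in the WT LPS list. More peaks in KO than in WT with LPS were counted for 7.01% of all genes. With merged lists, whether 4 against 2 exceeds the variation between replicates cannot be told.

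**Figure D2:**
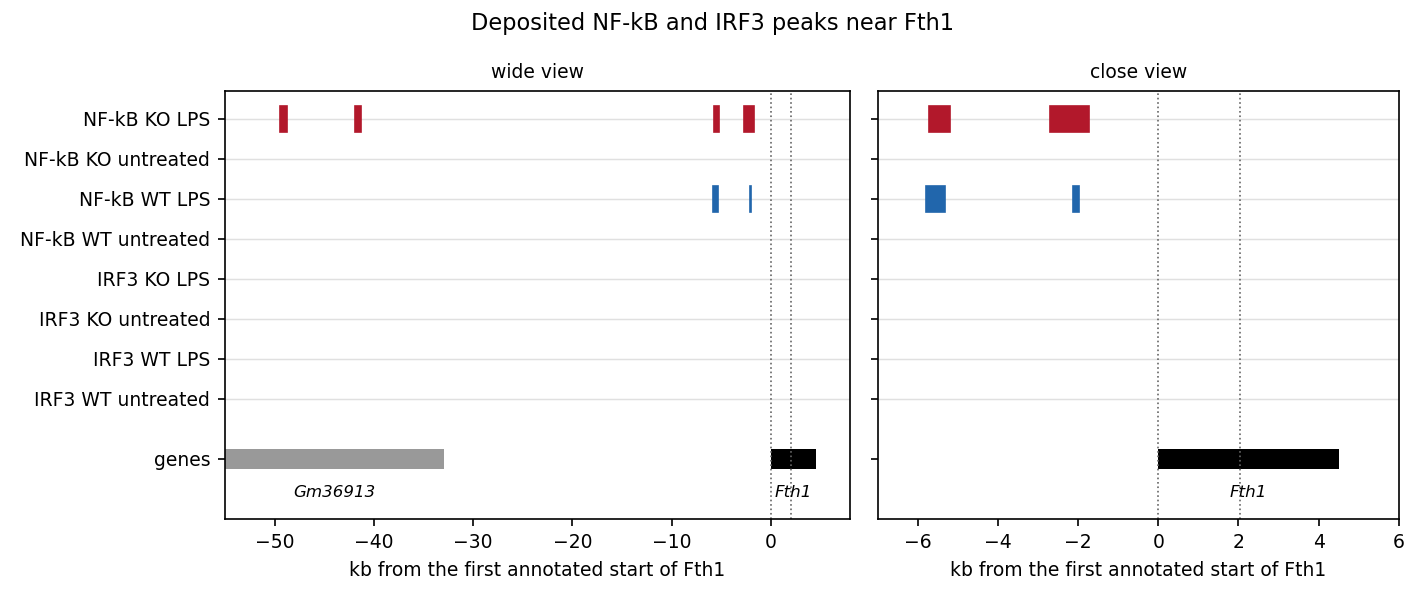
Peaks of the 8 merged lists (rows) are drawn to scale as boxes by their distance in kb from the first annotated start of Fth1, with the gene in black, Gm36913 in grey, both annotated starts as dotted lines and other neighbouring genes not drawn. The KO LPS row has 4 NF-kB peaks and the WT LPS row 2, all upstream of the gene, and the other 6 rows are empty.

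Without LPS, no NF-kB peak lay within 100 kb of Fth1, as for most genes (18.4% had one in KO and 9.62% in WT). The distances of the nearest peaks, given next, were not set against those of other genes. In untreated KO cells the nearest one lay 523233 bp from the gene, and in untreated WT cells 969468 bp. The nearest IRF3 peaks lay 1103944 bp away in KO with LPS, 2173791 bp in KO untreated, 727952 bp in WT with LPS and 372698 bp in WT untreated. A list that shows a peak with LPS and none untreated, within 100 kb, was found for 5.11% of all genes in KO and 8.36% in WT. In both genotypes at once, as for Fth1, it was found for 1.57% of all genes. Adding that no IRF3 list had a peak left 1.11% of all genes.

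At Sod2 the LPS peak lay inside the gene. In KO with LPS it spanned 284 bp (chr17:13010071-13010354), and in WT with LPS 175 bp (chr17:13010180-13010354). Both ended at the same base, and the WT peak lay wholly within the KO peak and made up 61.6% of it. Their centres were 2373.5 bp (KO) and 2428 bp (WT) downstream of the annotated start. The gene table gives no exons, so whether the peaks are intronic was not determined. Neither untreated NF-kB list held a peak there.

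The Sod2 peaks passed a q-value of 0.05 in both lists. In KO with LPS the peak ranked 170 of 2376 (q = 0.0318) with a signal of 19.4, and in WT with LPS it ranked 284 of 2494 (q = 0.0348) with a signal of 16.6. Both were narrow for their lists. Only 18.3% of the KO LPS peaks and 7.78% of the WT LPS peaks were narrower, and the list medians were 943.5 and 1035 bp. The nearer edge of the promoter window printed above was 2183 bp away in KO and 2292 bp away in WT. An NF-kB peak overlapped the span of 2.73% of all genes in KO with LPS, 3.55% in KO untreated, 2.86% in WT with LPS and 1.78% in WT untreated. Peaks that overlapped the gene span in both LPS lists and in neither untreated NF-kB list were found for 0.224% of all genes.

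The second place near Sod2 was present with and without LPS. In KO with LPS an NF-kB peak of 644 bp (chr17:13090100-13090743) lay 71981 bp downstream of the gene, and in untreated KO cells a peak of 594 bp lay 71936 bp away. In WT with LPS the peak had 675 bp and lay 71959 bp away. Untreated WT cells had 2 abutting peaks of 443 and 343 bp, at 71917 and 72360 bp. The place was thus listed for NF-kB in all 4 conditions. With every list shortened to its 1169 best-ranked peaks, it was left in WT with LPS and WT untreated and in neither KO list. That cut removed more of the longer lists, and the full lists held 3065 peaks in KO untreated and 1462 in WT untreated. Within its full list the KO untreated peak ranked in the top 43.0%, and the WT untreated peaks in the top 64.4 and 72.0%. Its nearest protein-coding gene was Tcp10b, at 7799 to 8242 bp. Tcp10b belongs to a family of similar t-complex genes, and whether reads from similar copies contribute to these peaks was not tested.

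The downstream peaks did not rank among the best of their lists. They ranked 1499 of 2376 in KO with LPS and 1317 of 3065 in KO untreated. In WT they ranked 837 of 2494 with LPS, and 941 and 1052 of 1462 untreated. The q-values lay between 0.246 and 0.847. Counted within 100 kb, Sod2 therefore had 2 peaks of NF-kB in KO with LPS, 1 in KO untreated, 2 in WT with LPS and 2 in WT untreated. A peak in all 4 NF-kB lists and in no IRF3 list was found for 0.279% of all genes.

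**Figure D3:**
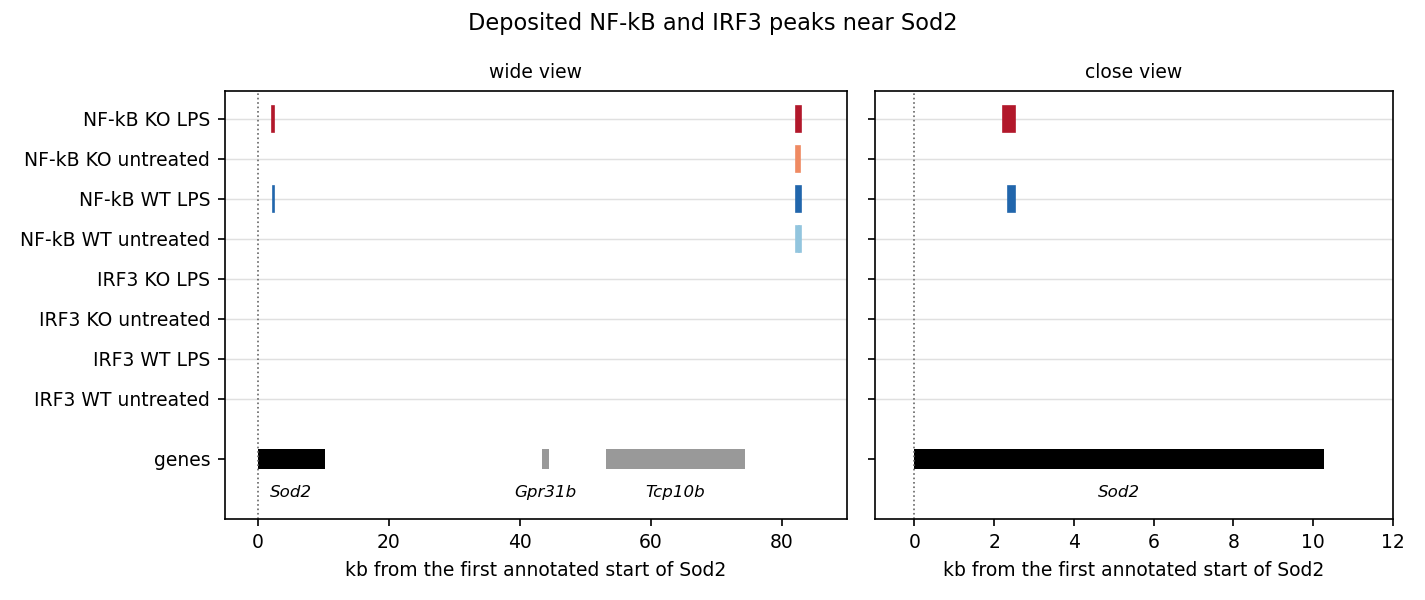
Peaks of the 8 merged lists (rows) are drawn to scale as boxes by their distance in kb from the annotated start of Sod2, with the gene in black, Gpr31b and Tcp10b in grey, the start as a dotted line and other neighbouring genes not drawn. The boxes inside Sod2 appear in the KO LPS and WT LPS rows of NF-kB, the boxes beyond Tcp10b appear in all 4 NF-kB rows, and the IRF3 rows are empty.

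For Sod2 the nearest IRF3 peak was the same place in all 4 lists, between 341520 and 341811 bp from the gene. That region was listed in all 8 lists. It was wide, at 1988 bp in KO with LPS, 1947 bp in KO untreated, 1794 bp in WT with LPS and 1608 bp in WT untreated. None of the 13 NF-kB peaks near Fth1 and Sod2 lay in a region listed in all 8 lists. The 100 kb limit cut through no cluster. The farthest peak inside it lay at 48752 bp for Fth1 and 72360 bp for Sod2, and the nearest one outside lay at 372698 bp for Fth1 and 231952 bp for Sod2.

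Within 10 kb of the gene the pattern of both genes was identical. Fth1 had 2 peaks of NF-kB in KO with LPS and 2 in WT with LPS, and Sod2 had 1 in each of the same lists. The other 6 lists had none for either gene. Among all genes, 57 (0.26%) had a peak within 10 kb in both NF-kB LPS lists and in none of the other 6. The shares with a peak within 10 kb were 3.97% of all genes in KO with LPS, 4.95% in KO untreated, 4.1% in WT with LPS and 2.45% in WT untreated for NF-kB. For IRF3 they were 2.87, 2.65, 2.2 and 1.67% in the same order. An NF-kB peak within 10 kb with LPS and none untreated was found for 1.33% of all genes in KO and 2.3% in WT. The pattern chose the members, so their place among the 57 is no independent result.

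At the 3 places listed with LPS alone in both genotypes, the KO peak was the wider one. The widths were 523 bp in KO and 473 bp in WT at the farther Fth1 position, 971 and 150 bp at the nearer one, and 284 and 175 bp inside Sod2. At the downstream Sod2 place the order was the other way, with 644 bp in KO and 675 bp in WT. Among all 1473 overlapping pairs of NF-kB LPS peaks, the KO peak was wider in 41.6%, with medians of 1233 bp in KO and 1394 bp in WT. The 3 places share their 2 lists and are not replicates, so the difference from that background was not tested.

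**Figure D4:**
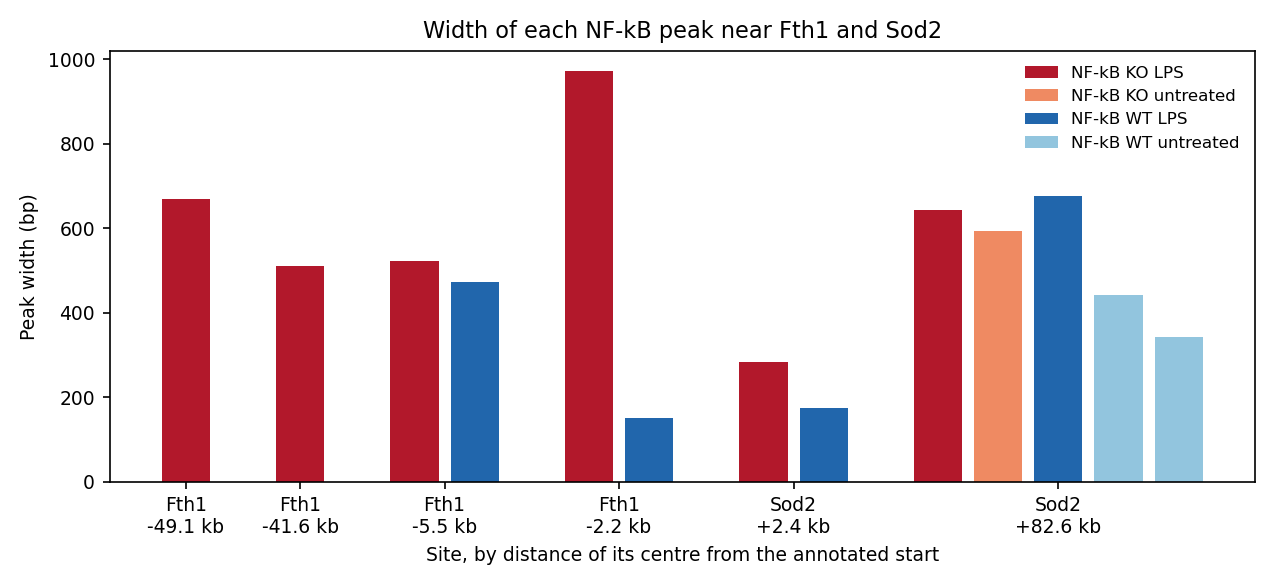
Bars give the width in bp of each of the 13 NF-kB peaks within 100 kb of Fth1 and Sod2, grouped by place and labelled with the distance of the place's centre from the first annotated start. At the nearer Fth1 position the KO LPS bar stands at 971 bp and the WT LPS bar at 150 bp, while the downstream Sod2 place has bars from all 4 NF-kB lists between 343 and 675 bp.

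Of 38 genes of iron handling, Fth1 included, 12 (31.6%) had a peak within 100 kb in at least 1 of the 8 lists and 3 (7.89%) within 10 kb, where 29.7 and 8.1% of all genes did. By NF-kB list, 7 (18.4%) had an NF-kB peak within 100 kb in KO with LPS and 8 (21.1%) in KO untreated. In WT there were 6 (15.8%) with LPS and 3 (7.89%) untreated. The shares of all genes were 15.2, 18.4, 15.5 and 9.62% in the same order. Within 10 kb the NF-kB counts were 3 (7.89%), 1 (2.63%), 2 (5.26%) and 0 in the same order. The shares of all genes were 3.97, 4.95, 4.1 and 2.45%. In the IRF3 lists 2 (5.26%), 3, 3 and 3 (7.89% each) had a peak within 100 kb. Of all genes, 11.0, 10.5, 8.51 and 6.47% did. Fth1 and Cd163, a haemoglobin scavenger receptor gene, were the iron genes with a peak in both NF-kB LPS lists and none of the other 6. They are 5.26% of the 38, where 1.11% of all genes had this pattern within 100 kb. The Cd163 peaks lay 92546 bp (KO) and 92376 bp (WT) from the gene. Within 10 kb, Fth1 was alone in this pattern (2.63%, against 0.26% of all genes). Fth1 was chosen for its LPS peaks, so nothing is read from these shares. Lcn2, which encodes a siderophore carrier, had a peak on its span in KO with LPS and in no other list. The Lcn2 peak ranked 301 of 2376 (q = 0.083). Fbxl5, which encodes a sensor of iron, had a peak 99900 bp away in that list alone. Presence in that list alone within 100 kb thus held for 2 of the 38 genes (5.26%) and for 2.42% of all genes. Within 10 kb it held for Lcn2 alone (2.63%) and for 0.635% of all genes.

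The remaining iron genes near an NF-kB LPS peak also had peaks without LPS. Heph, a ferroxidase gene, carried wide peaks inside its span in 7 of the 8 lists, of 1528 to 2405 bp. Trf, the transferrin gene, had wide peaks 65922 to 66537 bp away in all 8 lists. Slc39a8, a metal transporter gene, had peaks 14068 to 14288 bp away in 7 lists. Blvrb, a biliverdin reductase gene, had an NF-kB peak 91079 bp away in WT with LPS and 91230 bp away in KO untreated. At Fth1, by comparison, no list without LPS held a peak.

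Of 38 genes of superoxide and peroxide metabolism, Sod2 included, 11 (28.9%) had a peak within 100 kb in at least 1 list. Within 10 kb 5 (13.2%) had one. Of all genes, 29.7 and 8.1% did. By NF-kB list, 9 (23.7%) had an NF-kB peak within 100 kb in KO with LPS and 7 (18.4%) in KO untreated. In WT there were 5 (13.2%) with LPS and 2 (5.26%) untreated. The shares of all genes were 15.2, 18.4, 15.5 and 9.62% in the same order. Within 10 kb the NF-kB counts were 4 (10.5%), 3 (7.89%), 3 (7.89%) and 1 (2.63%) in the same order. The shares of all genes were 3.97, 4.95, 4.1 and 2.45%. In the IRF3 lists 2, 1, 2 and 2 (5.26, 2.63, 5.26 and 5.26%) had a peak within 100 kb. Of all genes, 11.0, 10.5, 8.51 and 6.47% did. Within 10 kb, Sod2 was the gene with a peak in both NF-kB LPS lists and in none of the other 6. It is 1 of 38 (2.63%), where 0.26% of all genes had this pattern, for which Sod2 was chosen. Within 100 kb, where Sod2 leaves this pattern through its downstream place, Gpx3 and Prdx5 had it (5.26%, against 1.11% of all genes). Gpx3 encodes a secreted glutathione peroxidase and had peaks 25775 bp (KO) and 25811 bp (WT) away, ranked 163 of 2376 and 815 of 2494. Prdx5, a peroxiredoxin gene, had overlapping peaks 35543 bp (KO) and 35613 bp (WT) away, and a further KO peak at 29540 bp.

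Cybb, which encodes the catalytic subunit of the phagocyte NADPH oxidase that makes superoxide, had a 230 bp NF-kB peak on its span in KO with LPS (rank 1349 of 2376, q = 0.645). Farther from Cybb, NF-kB peaks lay 68719 bp away in KO with LPS and 69909 bp away in KO untreated, and an IRF3 peak 52097 bp away in WT untreated. Nfe2l2, which encodes the antioxidant regulator NRF2, had a 249 bp peak 26592 bp away in KO with LPS and in no other list. Presence in that list alone within 100 kb held for 1 of the 38 genes (2.63%) and for 2.42% of all genes. Within 10 kb it held for Cybb alone (2.63%) and for 0.635% of all genes. Peaks on the span of Slc7a11, a cystine transporter gene, were listed in 7 of the 8 lists. Ccs, the copper chaperone gene for Sod1, had peaks 5303 to 5663 bp away in 5 lists. Prdx4, another peroxiredoxin gene, and Nox1, an NADPH oxidase gene, had NF-kB peaks in both KO lists, 95750 and 42313 bp away with LPS and 95536 and 42224 bp away untreated. Nox4, another NADPH oxidase gene, had a peak on its span in KO untreated alone, ranked 3046 of 3065.

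By presence over the 8 lists, 243 other genes matched Fth1 and 238 of them had no peak in common with it. The 5 of these with the best-ranked peaks were Pim1, Acox2, Fam107a, Kctd6 and Oit1. Pim1, a serine/threonine kinase gene on chromosome 17, had its nearest peaks 95075 bp (KO) and 95069 bp (WT) away. The other 4 lie on chromosome 14, with equal ranks because they share a peak. Sod2 was matched by 60 genes, of which 56 had no peak in common with it. The best-ranked 5 were Dspp, Gm17660, Hsd17b11, Nudt9 and Sparcl1 on chromosome 5, again with equal ranks from a shared peak, which lies on the Gm17660 span. Likeness here means equal presence within 100 kb in 8 of 8 lists and nothing more.

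The lists cannot check the cell type, because a peak near a marker is not its expression. Within 100 kb in at least 1 of the 8 lists, 6 of 8 macrophage markers, 1 of 4 T cell markers, 1 of 3 B cell markers and 3 of 4 neutrophil markers had a peak, where 29.7% of all genes did. The lists held 2376, 3065, 2494 and 1462 NF-kB peaks in KO with LPS, KO untreated, WT with LPS and WT untreated, and 1792, 1707, 1424 and 1169 IRF3 peaks in the same order. The deletion of Dnmt3a could not be checked from peaks.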

How the data were processed

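The 8 lists hold peaks of NF-kB and IRF3 ChIP-seq, 1 list per factor, genotype and treatment, and each merges its group's replicates per the labels. Per the submitters' processing notes, the build is mm10 and the tools named include MACS2 2.1.1, HOMER 4.9 and Picard 2.8.0, with no role given for any of them. For the aligner, the calling settings and the merging, nothing is stated in the labels. Whether 1 threshold was used for all lists is unknown. Each deposited peak has a score of at most 1000, a signal with no stated normalization, and the authors' own p-value and q-value. The deposited score was not used. The largest q-values lay between 0.893 and 0.912, so the lists were not limited to a q-value of 0.05. Bisulfite, ATAC-seq and input samples were not analysed here.

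Peaks were ranked within a list by p-value, then signal, width and position. Distances run from the nearer peak edge to the gene span in a RefSeq table of GRCm38.p6, and a peak overlapping the span has a distance of 0. An overlap of 1 bp sufficed for peaks to count as shared. Promoter sequences came from RefSeq (GRCm38.p6), and both genes matched the table by symbol. Peak sequences were not used here. The iron list and the superoxide and peroxide list hold 38 genes each, all matched by symbol.

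The members, gene lists and comparisons were chosen with earlier results of these data known. Genes were named by rule: the members, the protein-coding gene nearest to a member's peak, genes of both lists within 10 kb of a peak or within 100 kb of an NF-kB LPS peak, and the 5 best-ranked genes of equal presence. Alternatives varied the distance, the q-value, the list length, the width, regions listed in all 8 lists and the overlap. Counting was tested on simulated peaks. Analyses used Python 3.11.15, pandas 2.3.3, numpy 2.4.6 and matplotlib 3.10.9.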

Additional observations from a re-analysis of the deposited data

How the results depend on the processing

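Merged lists without replicates or read depth limit every value here, and no label ties a replicate to an animal. No paired analysis was possible because each list merges its group's replicates, and for the same reason no replicate could be left out. In all alternatives run, Fth1 stayed without a peak in both untreated NF-kB lists and in all IRF3 lists, and so did Sod2 in the IRF3 lists. Only the window of 200 kb could have added a peak, and the other settings could not change an absence. In those lists the nearest peak lay 372698 bp from Fth1 and 341520 bp from Sod2, beyond 200 kb as well. With a q-value under 0.05, 2 Fth1 peaks and 2 Sod2 peaks were left, 1 each in KO with LPS and WT with LPS, so Sod2 appeared in 2 lists. Among peaks under 500 bp, Fth1 had 2 peaks, both in WT with LPS (1 list), because its KO peaks are all wider, and Sod2 had 4. Within 10 kb and within 50 kb Sod2 had 2 peaks in 2 lists, since the downstream place falls out. Counting a peak only for its nearest protein-coding gene, a choice made after seeing the data, gave Sod2 the same 2 peaks in 2 lists and Fth1 4 peaks in 2 lists. At equal list length Sod2 had 5 peaks in 3 lists, with 1 in KO with LPS, 0 in KO untreated, 2 in WT with LPS and 2 in WT untreated. Equal length removed more of the KO untreated list (3065 peaks) than of the WT untreated list (1462 peaks). Genes with an NF-kB peak with LPS and none untreated numbered 1118 in KO and 1830 in WT. Their numbers became 291 and 503 within 10 kb, 702 and 1151 within 50 kb, 128 and 419 with a q-value under 0.05, and 738 and 683 when every list was shortened to 1169 peaks. In WT they became 2800 within 200 kb and 817 among peaks under 500 bp. The order of KO and WT thus turned under equal list length and among peaks under 500 bp, where KO had 1082. Within 10 kb, 3 iron genes and 5 superoxide and peroxide genes had a peak in any list, against 12 and 11 within 100 kb, and of all genes 8.1% had one within 10 kb and 29.7% within 100 kb.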
